A study of Mus musculus with 6 samples.

Results

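The interferon response genes described here are 47 genes that carry, transmit or answer an interferon signal, and they were measured in mouse T cell acute lymphoblastic leukemia (T-ALL) cells. They were chosen as a named list, and each was read from probe sets annotated with that 1 gene symbol, taking the probe set with the highest mean where a gene had several. Of the 47 genes, 44 were found among the 19938 genes with their own probe set. Of these 44, 37 were bright enough to be tested among 13956 genes, and 7 lay below the intensity filter, a mean log2 intensity of 6.70. Isg15 and Gbp2 were present only on probe sets shared with another symbol, Ifi44 was not named in the annotation used here, and these 3 genes are given no value.

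The leukemias had been induced by retroviral transduction of the active intracellular part of Notch (Notch-IC) into hematopoietic progenitors. All cells, those of the controls included, carried the Cre-ER transgene, a Cre recombinase switched on by tamoxifen, and the conditional Zfx fl/y allele. The Tamoxifen group, labelled ZFX null, consisted of leukemia cells from secondary recipient mice gavaged with 5 mg of Tamoxifen a day for 3 days. The Vehicle group, labelled ZFX flox, came from recipients given the vehicle. Treatment began 10 days after transplant into sublethally irradiated mice, and GFP+ T-ALL cells were collected by sorting 48 h later than the final dose. Each of the 3 independent leukemias, lines 14843, 14844 and 14846, gave 1 Tamoxifen and 1 Vehicle array, so each group held 3 arrays, which limits the precision. How many recipients stood behind an array is not given in the sources used here, nor is the age of the mice. Since no arrays came from Tamoxifen-treated cells lacking Cre or the conditional allele, the actions of Tamoxifen itself, active Cre and the loss of Zfx cannot be told apart. The Zfx probe set differed by 0.07 ± 0.06 (SE) on the log2 scale with a limma adjusted p of 0.48, and since the position of its probes relative to the deleted part is not known here, it does not check the labels.

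Markers of the T lineage were bright in every array: all 13 markers found of 14 lay above the filter, with mean log2 intensities from 11.03 to 13.40. Markers of other blood cells varied between arrays. The summed linear intensity of 10 monocyte and macrophage markers was 1368 to 2018 in Tamoxifen arrays. It was 3755 in the Vehicle array of line 14846, against 1331 and 1548 in the Vehicle arrays of lines 14843 and 14844. Most of the 3755 came from Ly86, at 11.20 log2 intensity in that array. Ly86 was at 8.90 in the Tamoxifen array of line 14846 and at 6.18 to 6.34 in the arrays of the other lines. Of the 10, Lyz2, Cd68 and Marco lay above the filter in every array, at 7.80 to 8.75, 8.47 to 8.89 and 7.14 to 7.27, and the other 6 had means below it, among them Csf1r, Cd14 and Adgre1 at 5.99 to 6.38. The sum of 9 neutrophil markers was 3263 in the Tamoxifen and 2445 in the Vehicle array of line 14844, against 1460 to 1671 in the arrays of the other lines. The sum of 7 natural killer cell markers was 7453 to 8670 in Tamoxifen arrays, and 5014, 7569 and 8889 in the Vehicle arrays of lines 14843, 14844 and 14846. That of 6 B cell markers was 714 to 794 in Tamoxifen arrays, and 646, 672 and 1120 in those Vehicle arrays. Most of the natural killer cell sum came from Gzma, at 12.65 to 12.71 in Tamoxifen arrays and 12.01 to 12.73 in Vehicle arrays. Ncr1, Klrk1, Eomes and Gzmb had means below the filter. Cd79b gave most of the B cell sum of 1120, at 9.56 in that array and 8.01 to 8.66 in the others. Plasmacytoid dendritic cells make much type I interferon. The sum of 6 of their markers was 2673 to 2847 in Tamoxifen arrays and 2821 to 3162 in Vehicle arrays. Most of this sum came from Tcf4 and Ccr9, at mean log2 intensities of 10.09 and 9.95. Among the 6, Siglech was at 7.10 to 7.15 in Tamoxifen arrays and 6.9996 to 7.11 in Vehicle arrays. Spib was at 7.92 in the Tamoxifen and 8.33 in the Vehicle array of line 14846, and at 7.19 to 7.35 in the other arrays. Ccr9 was lower with Tamoxifen in lines 14843, 14844 and 14846, by -0.86, -0.13 and -0.06. In sorted cells measured in bulk, fewer cells of a type and less RNA per cell cannot be told apart.

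Type I interferons bind a receptor made of Ifnar1 and Ifnar2, and type II interferon binds one made of Ifngr1 and Ifngr2. Behind the type I receptor the kinases Jak1 and Tyk2 lead to a complex that holds Stat2 and Irf9 and binds the interferon-stimulated response element (ISRE) of target genes. Type II interferon acts on many targets through the gamma-activated sequence (GAS). Cells also sense viral or displaced cellular RNA through Ddx58 (RIG-I) and Ifih1 (MDA5), both of which signal through the mitochondrial adaptor Mavs to switch on interferon genes.

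The promoter windows of 5 genes that the results below turn on are shown first, because they carry these elements to different degrees. Sequences were taken from RefSeq on build GRCm38.p6, which held windows for 37 of the 47 genes, each reaching from 250 bases before the transcription start to 50 bases after it. They were searched on both strands for 2 copies of GAAA separated by any 2 bases as a short form of the ISRE and for TTCNNNGAA as the GAS. AGGCCT, the core of the sequence reported to be bound by ZFX, was searched too, and capitals mark every match, overlapping ones joined. Irf1, an activator of interferon target genes, lies on the plus strand at chr11:53769764-53770063. Bst2, the virus-tethering membrane protein, lies on the minus strand at chr8:71537423-71537722. Eif2ak2, the RNA-activated kinase PKR, lies on the minus strand at chr17:78882523-78882822. Oas1a, an oligoadenylate synthetase, lies on the minus strand at chr5:120907476-120907775. Tap1, a peptide transporter subunit, lies on the plus strand at chr17:34187306-34187605.
Irf1: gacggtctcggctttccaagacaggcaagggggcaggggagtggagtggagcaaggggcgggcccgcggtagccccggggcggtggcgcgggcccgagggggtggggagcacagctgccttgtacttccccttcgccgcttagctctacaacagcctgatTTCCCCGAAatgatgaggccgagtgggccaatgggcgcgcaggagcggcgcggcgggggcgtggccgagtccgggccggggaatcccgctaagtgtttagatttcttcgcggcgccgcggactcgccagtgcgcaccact
Bst2: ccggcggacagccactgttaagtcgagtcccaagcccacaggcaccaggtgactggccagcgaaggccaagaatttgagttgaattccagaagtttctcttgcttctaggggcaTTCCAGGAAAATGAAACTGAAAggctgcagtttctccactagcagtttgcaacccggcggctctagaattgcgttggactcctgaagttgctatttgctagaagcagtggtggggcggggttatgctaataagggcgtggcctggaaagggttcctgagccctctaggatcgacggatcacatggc
Eif2ak2: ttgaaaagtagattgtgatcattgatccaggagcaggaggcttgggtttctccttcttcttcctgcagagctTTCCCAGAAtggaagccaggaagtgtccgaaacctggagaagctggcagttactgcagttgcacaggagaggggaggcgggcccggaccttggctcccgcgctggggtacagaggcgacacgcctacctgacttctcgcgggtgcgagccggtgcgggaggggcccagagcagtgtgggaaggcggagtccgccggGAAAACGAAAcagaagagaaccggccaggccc
Oas1a: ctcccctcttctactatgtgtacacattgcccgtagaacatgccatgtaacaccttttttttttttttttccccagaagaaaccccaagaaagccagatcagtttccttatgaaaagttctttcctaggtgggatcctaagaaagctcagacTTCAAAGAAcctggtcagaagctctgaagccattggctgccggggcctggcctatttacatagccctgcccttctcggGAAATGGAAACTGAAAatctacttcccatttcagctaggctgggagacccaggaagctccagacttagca
Tap1: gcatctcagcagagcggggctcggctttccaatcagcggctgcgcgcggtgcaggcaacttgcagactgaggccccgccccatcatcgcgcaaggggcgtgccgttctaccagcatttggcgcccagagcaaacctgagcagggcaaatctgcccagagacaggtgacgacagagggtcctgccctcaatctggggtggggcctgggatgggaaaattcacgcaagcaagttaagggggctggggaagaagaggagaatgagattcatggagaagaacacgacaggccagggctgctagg

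The Irf1 window shown held 1 GAS match, 90 bases before the start, and no ISRE match. A further Irf1 window, at chr11:53770223-53770522, held none of the searched letters. In Bst2, 2 ISRE matches and 1 GAS match formed an unbroken run that began 136 bases before the start. Oas1a held 2 overlapping ISRE matches, the first 20 bases before the start, and 1 GAS match farther out, while Eif2ak2 held its ISRE match after the start and 1 GAS match 178 bases before it. Tap1 held none of the searched letters, and its window shares 275 bases with that of Psmb9, which is transcribed in the opposite direction. Over the members, ISRE letters were in 37.2% of 43 windows, against 3.44% of all 32851 windows. GAS letters were in 27.9% of member windows, against 8.3% of all windows, and AGGCCT was in 16.3%, against 10.3%. These are matches of letters, not measured binding.

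None of the 37 tested members passed limma's adjusted p of 0.05 between Tamoxifen and Vehicle, 0 higher and 0 lower, against 6.23% of all 13956 genes tested. At an unadjusted p under 0.05 there were 9 members, 3 higher and 6 lower, or 24.3%, close to the 23.8% of all genes. The 9 were Usp18, Eif2ak2 and Oasl2 on the higher side and Ifnar1, Irf1, Irf2, Irf9, Bst2 and Parp12 on the lower side. The median log2 difference, Tamoxifen minus Vehicle, was 0.02 over the members and 0.03 over all genes tested, and the members ranged from -0.55 for Parp12 to 0.53 for Usp18. The arrays of the groups did not overlap for 7 members, or 18.9%, against 23.7% of all genes. All 3 lines had the same sign for 10 members, or 27.0%, against 48.8% of all genes. Higher in all 3 lines were 3 of the 37 members, against 28.6% of all genes tested. Lower in all 3 lines were 7 of the 37, or 18.9%, close to the 20.2% of all genes tested.

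**Figure D1:**
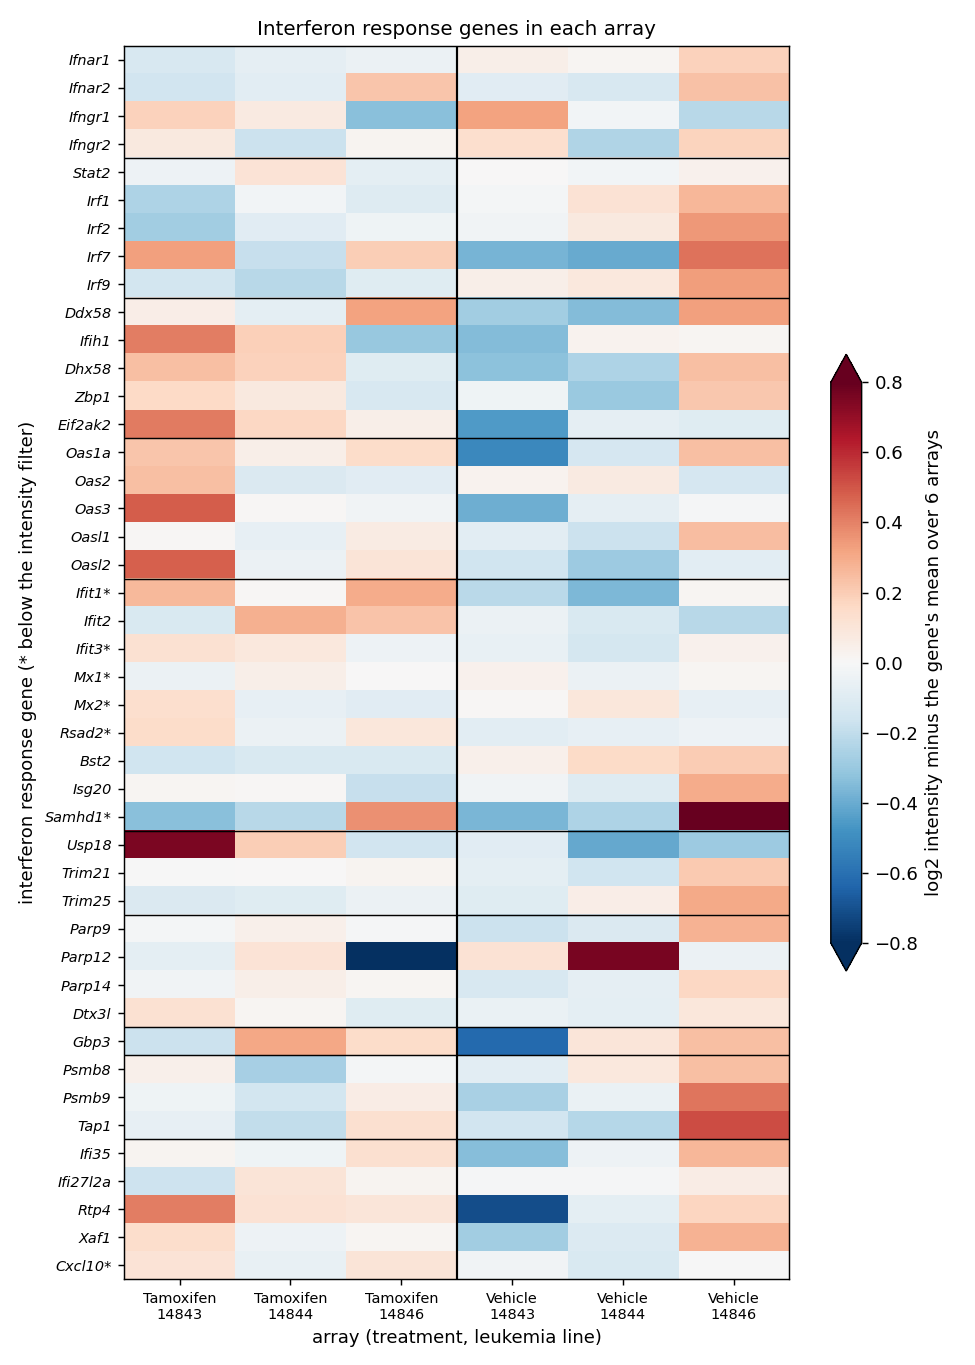
Each row is 1 of the 44 measured interferon response genes and each column 1 array, Tamoxifen arrays at the left and Vehicle arrays at the right. Colour gives log2 intensity minus the gene's mean over the 6 arrays, black lines separate groups of genes by role, and asterisks mark the 7 genes below the intensity filter. The Vehicle array of line 14846 holds the highest value of 23 of the 37 tested genes.

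The receptor genes were among the brightest members and differed little between treatments. Ifnar1, the signalling chain of the type I receptor, was at 10.15, 10.21 and 10.23 log2 intensity in the Tamoxifen arrays of lines 14843, 14844 and 14846, against 10.33, 10.29 and 10.46 in their Vehicle arrays. Each Tamoxifen array thus lay below each Vehicle array, and the fitted difference of -0.16 ± 0.05 (SE) had an adjusted p of 0.16. Ifnar2, the other chain of that receptor, was at 11.08, 11.15 and 11.45 in Tamoxifen arrays and at 11.14, 11.10 and 11.46 in Vehicle arrays. Its values followed the line rather than the treatment, being highest in both arrays of line 14846, with a treatment difference of -0.01 and a 95% interval from -0.14 to 0.12. Ifngr1, the ligand-binding chain of the type II receptor and the brightest member, was at 11.97, 11.86 and 11.45 in Tamoxifen arrays and at 12.11, 11.77 and 11.57 in Vehicle arrays. It was lowest in line 14846 under both treatments, while its treatment difference was -0.05 with an interval from -0.22 to 0.11. Ifngr2, the second chain of that receptor, differed by -0.05 ± 0.06 and was lower in line 14844 than in the others under both treatments.

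Among the 5 transcription factors, 0 passed the test, and the fitted difference was negative for Irf1, Irf2, Irf9 and Stat2 and positive for Irf7. Irf9, the DNA-binding partner of Stat2, was at 9.58, 9.51 and 9.63 in the Tamoxifen arrays of lines 14843, 14844 and 14846, against 9.77, 9.81 and 10.06 in Vehicle arrays. The groups did not overlap, with means of 9.57 ± 0.06 in Tamoxifen arrays and 9.88 ± 0.16 in Vehicle arrays (SD, n = 3 each). The difference of -0.31 ± 0.06 (SE), a ratio of 1.24 between the groups, missed the threshold at a limma adjusted p of 0.055. Irf2, which can repress as well as activate interferon target genes, was at 10.94, 11.13 and 11.18 in Tamoxifen arrays and at 11.19, 11.29 and 11.56 in Vehicle arrays. Irf1, whose window is shown above, was at 10.69, 10.92 and 10.84 in Tamoxifen arrays and at 10.93, 11.05 and 11.20 in Vehicle arrays. Both had each Tamoxifen array below each Vehicle array, though only narrowly, with differences of -0.26 ± 0.06 and -0.24 ± 0.06 (SE) and limma adjusted p-values of 0.072 and 0.093. Irf1 had a dimmer second probe set, which gave -0.13. Irf7, which amplifies type I interferon production, was at 9.01, 8.50 and 8.88 in Tamoxifen arrays, against 8.31, 8.28 and 9.12 in Vehicle arrays. It was higher with Tamoxifen in lines 14843 and 14844 and lower in line 14846, and its mean difference of 0.23 ± 0.17 (SE) had an adjusted p of 0.46, and was -0.0097 without line 14843. Stat2, which carries the activation domain of the complex with Irf9, differed by -0.01, with an interval from -0.18 to 0.15.

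Parp12 and Bst2 were the other members nearest to the threshold, both on the lower side. Bst2 was at 9.05, 9.09 and 9.09 in the Tamoxifen arrays of lines 14843, 14844 and 14846, against 9.25, 9.36 and 9.41 in Vehicle arrays. The 3 Tamoxifen arrays had an SD of 0.02 and lay below all Vehicle arrays, with a difference of -0.26 ± 0.05 (SE) with a limma adjusted p of 0.052. Parp12, a mono-ADP-ribosyltransferase, was at 8.80, 8.99 and 8.03 in Tamoxifen arrays and at 8.998, 9.64 and 8.83 in Vehicle arrays. It had the widest fitted difference of the members, -0.55 ± 0.12 (SE) with an adjusted p of 0.065, although the groups overlapped because the lines themselves differed. Each line had Parp12 lower with Tamoxifen, by 1.14-fold in line 14843, 1.57-fold in line 14844 and 1.75-fold in line 14846. The other members of its group were level on average: Dtx3l, Parp9 and Parp14 differed by 0.03, 0.01 and 0.02, and these signs turned when arrays were centred on their median. Dtx3l, the ubiquitin ligase that pairs with Parp9, was the brightest of the group, at 11.37, 11.26 and 11.15 in Tamoxifen arrays and 11.19, 11.17 and 11.34 in Vehicle arrays. Parp14, another ADP-ribosyltransferase, was at 10.19, 10.27 and 10.24 in Tamoxifen arrays and at 10.09, 10.15 and 10.39 in Vehicle arrays. In these 2 genes Tamoxifen was the higher treatment in lines 14843 and 14844 and the lower in line 14846.

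All 5 sensor genes had a positive mean difference, and none passed the test. Eif2ak2 was at 9.66, 9.42 and 9.30 in the Tamoxifen arrays of lines 14843, 14844 and 14846, against 8.80, 9.18 and 9.15 in Vehicle arrays. Its groups did not overlap, its means were 9.46 ± 0.19 in Tamoxifen arrays and 9.04 ± 0.21 in Vehicle arrays (SD, n = 3 each), and the difference of 0.42 ± 0.15 (SE) had an adjusted p of 0.17. Ddx58 was at 10.37, 10.24 and 10.63 in Tamoxifen arrays and at 10.03, 9.96 and 10.64 in Vehicle arrays. It was thus higher with Tamoxifen in lines 14843 and 14844, while the arrays of line 14846, its brightest line, differed by -0.01. Ifih1 was at 9.32, 9.10 and 8.61 in Tamoxifen arrays, against 8.57, 8.94 and 8.93 in Vehicle arrays. Dhx58, a helicase related to both RNA sensors that lacks their signalling domains, was at 8.51, 8.46 and 8.18 in Tamoxifen arrays and at 7.94, 8.03 and 8.52 in Vehicle arrays. Zbp1, a sensor of nucleic acids in the Z form, was at 9.98, 9.89 and 9.69 in Tamoxifen arrays, against 9.79, 9.52 and 10.03 in Vehicle arrays. For these 3 genes the order of the treatments turned in line 14846, so their mean differences of 0.20 ± 0.19, 0.22 ± 0.18 and 0.07 ± 0.14 (SE) were similar to or smaller than their errors.

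Downstream of the RNA sensors, Mavs gave the clearest change of the pathway. It was at 9.34, 9.69 and 9.78 in the Tamoxifen arrays of lines 14843, 14844 and 14846, against 10.11, 10.43 and 10.64 in Vehicle arrays. Every Tamoxifen array lay below every Vehicle array, and the within-line differences of -0.78, -0.75 and -0.86 were close to each other. The fall of Mavs was 1.74-fold, or -0.80 ± 0.05 (SE) in log2 units, at a limma adjusted p of 0.0040, and 0.077 without line as a block. Mavs is no member of the 47 genes; it belongs to 97 further pathway genes. The test covered 75 of them, while 11 lay below the filter and 11 had no probe set of their own. Of the 75, 3 fell and 0 rose, against 4.93% and 1.3% of all genes, and their median difference was -0.00. The other falls were those of Ptpn11, the phosphatase SHP2, which acts on cytokine receptor signalling, at -0.36 ± 0.05 with an adjusted p of 0.023, and Trafd1, an interferon-induced regulator of innate signalling, at -0.31 ± 0.05 with 0.036. Ptpn11 was at 10.68, 10.68 and 10.66 in Tamoxifen arrays and at 11.06, 10.98 and 11.06 in Vehicle arrays. Trafd1 was at 9.64, 9.76 and 9.74 in Tamoxifen arrays, against 9.95, 9.997 and 10.11 in Vehicle arrays. Neither gene's groups overlapped, but Ptpn11 and Trafd1 missed the threshold whichever line was left out, and Trafd1 also without the block, at an adjusted p of 0.079, and after quantile normalization, at 0.051. Jak1 and Tyk2 differed by 0.06 ± 0.05 and -0.05 ± 0.12 (SE).

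**Figure D2:**
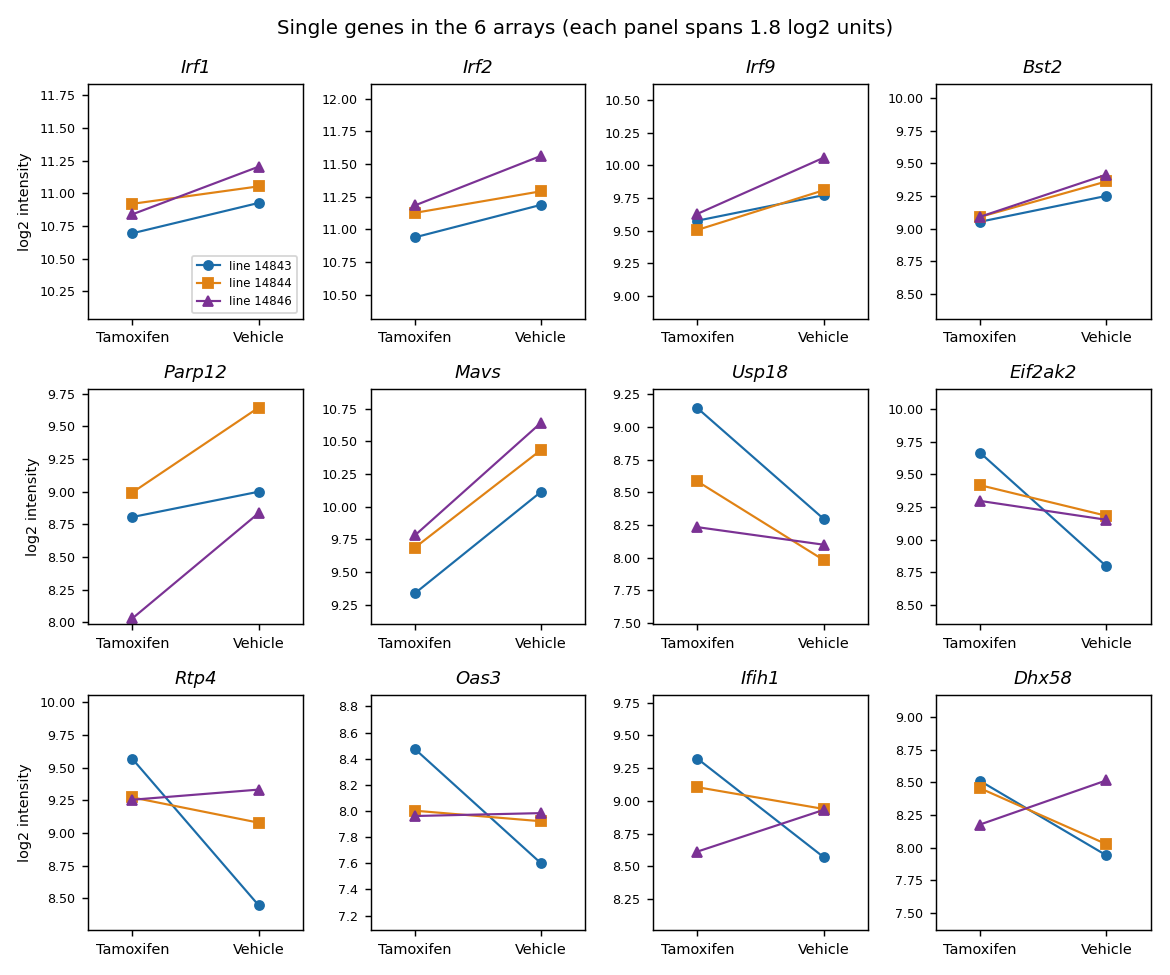
Log2 intensity (vertical axis) of 12 genes in the Tamoxifen array (left) and the Vehicle array (right) of each line, with a line joining the 2 arrays of 1 leukemia. All panels span the same log2 range, and no error bars are drawn since each point is 1 array. Mavs is lower with Tamoxifen in all 3 lines by 0.75 to 0.86, while Rtp4 differs by 1.12 in line 14843 and by -0.08 in line 14846.

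Oligoadenylate synthetases with enzyme activity make the small messenger that activates the RNA-degrading enzyme RNase L. All 5 genes of this family had a positive mean difference. Those of Oas2 and Oasl1 were only 0.02 and 0.01 and turned negative when arrays were centred on their median. Oasl2 was at 7.65, 7.13 and 7.28 in the Tamoxifen arrays of lines 14843, 14844 and 14846, against 7.02, 6.89 and 7.09 in Vehicle arrays. Its groups did not overlap, and the difference of 0.36 ± 0.10 (SE) had a limma adjusted p of 0.10. Oas1a was at 8.45, 8.27 and 8.38 in Tamoxifen arrays and at 7.71, 8.09 and 8.47 in Vehicle arrays. Oas3 was at 8.47, 8.002 and 7.96 in Tamoxifen arrays, against 7.60, 7.92 and 7.98 in Vehicle arrays. In both genes the Vehicle array of line 14843 was the lowest of the 6 and lines 14844 and 14846 differed little, and their mean differences were 0.28 ± 0.16 and 0.31 ± 0.18 (SE). Oasl1, which in mice restrains the translation of Irf7, was the brightest of the group, at 8.68, 8.61 and 8.74 in Tamoxifen arrays and 8.59, 8.50 and 8.92 in Vehicle arrays. Probe sets of such related genes may share signal between paralogs.

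Several classical antiviral effectors were dim in these leukemia cells. Ifit1, Ifit3, Mx1, Mx2, Rsad2, Samhd1 and the chemokine gene Cxcl10 lay below the filter, with Mx1 at 5.58 to 5.67 in Tamoxifen arrays and 5.58 to 5.66 in Vehicle arrays. Many laboratory mouse strains carry a defective Mx1 gene, and the strain is not given in the sources used here. Ifit1, which binds RNA with foreign ends, was at 6.70, 6.45 and 6.73 in the Tamoxifen arrays of lines 14843, 14844 and 14846, against 6.22, 6.08 and 6.46 in Vehicle arrays. It was higher with Tamoxifen in each line, though the groups overlapped. In a fit without the filter Ifit1 had a difference of 0.37 ± 0.05 (SE) at a limma adjusted p of 0.032. It was the 1 member called in that fit, and the share of all genes called there is not given here. Samhd1, which depletes deoxynucleotides, was at 6.29, 6.40 and 6.99 in Tamoxifen arrays, against 6.26, 6.38 and 7.43 in Vehicle arrays. It stood above the filter only in line 14846, under both treatments. Among the brighter effectors, Ifit2 was at 9.30, 9.71 and 9.66 in Tamoxifen arrays and at 9.38, 9.30 and 9.21 in Vehicle arrays. The nuclease gene Isg20 was at 10.10, 10.09 and 9.90 in Tamoxifen arrays, against 10.06, 9.98 and 10.38 in Vehicle arrays. Ifit2 was higher with Tamoxifen in lines 14844 and 14846 but not in 14843, and Isg20 differed mainly in line 14846, by -0.48.

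Usp18, which removes Isg15 from proteins and restrains the type I receptor, had the highest positive difference. It was at 9.14, 8.58 and 8.23 in the Tamoxifen arrays of lines 14843, 14844 and 14846, against 8.30, 7.98 and 8.10 in Vehicle arrays. Usp18 was higher with Tamoxifen in each line, by 0.85, 0.60 and 0.13 log2 units, but the groups overlapped, and the difference of 0.53 ± 0.14 (SE) had a limma adjusted p of 0.090. Trim25, a ubiquitin ligase that acts on Ddx58, was at 10.57, 10.58 and 10.63 in Tamoxifen arrays and at 10.59, 10.74 and 10.99 in Vehicle arrays. Trim25 was lower with Tamoxifen in each line, chiefly in line 14846, at a mean of -0.18 ± 0.08 (SE). Trim21, a cytosolic antibody receptor, was at 10.11, 10.12 and 10.14 in Tamoxifen arrays, against 10.04, 9.96 and 10.33 in Vehicle arrays, so the Vehicle arrays were more spread than the Tamoxifen arrays.

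Neither the antigen processing genes, which were among the brighter members, nor Gbp3 gave a call. Psmb8, an immunoproteasome subunit, was at 11.59, 11.28 and 11.53 in the Tamoxifen arrays of lines 14843, 14844 and 14846, against 11.46, 11.63 and 11.79 in Vehicle arrays. Psmb9, another such subunit, was at 10.81, 10.70 and 10.91 in Tamoxifen arrays and at 10.59, 10.79 and 11.27 in Vehicle arrays. Tap1 was at 10.34, 10.21 and 10.53 in Tamoxifen arrays, against 10.25, 10.18 and 10.92 in Vehicle arrays. Psmb9 and Tap1, which share the promoter region shown above, were both highest in the Vehicle array of line 14846 and both lower with Tamoxifen in that line, by 1.29-fold and 1.31-fold. Gbp3, a guanylate-binding protein, was at 8.55, 9.03 and 8.87 in Tamoxifen arrays and at 8.10, 8.81 and 8.96 in Vehicle arrays. Line 14843 was the lowest line for Gbp3 under both treatments.

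The remaining interferon-induced genes varied most in Rtp4, a chaperone-like protein of receptor transport. Rtp4 was at 9.57, 9.27 and 9.25 in the Tamoxifen arrays of lines 14843, 14844 and 14846, against 8.45, 9.08 and 9.33 in Vehicle arrays. The Vehicle array of line 14843 was far below the rest, so the 2.17-fold difference in that line left a mean of 0.41 ± 0.22 (SE) and a limma adjusted p of 0.33. Ifi35, which binds other interferon-induced regulators, was at 9.42, 9.36 and 9.53 in Tamoxifen arrays and at 9.06, 9.36 and 9.67 in Vehicle arrays. Xaf1, a partner of the apoptosis inhibitor XIAP, was at 9.53, 9.35 and 9.41 in Tamoxifen arrays, against 9.12, 9.29 and 9.67 in Vehicle arrays. Both had the same arrangement, lowest in the Vehicle array of line 14843 and highest in that of line 14846. Ifi27l2a was near the filter, at 6.68 to 6.95 in Tamoxifen arrays and 6.83 to 6.91 in Vehicle arrays.

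The differences of the members are given here for each line alone. Within line 14843, 8 of the 37 members were at least 1.5-fold higher in the Tamoxifen array, against 1.52% of all genes tested, and 0 were that much lower, against 2.82%. The 8 were Irf7, Ifih1, Eif2ak2, Oas1a, Oas3, Oasl2, Usp18 and Rtp4, at log2 differences from 0.64 to 1.12. Dhx58, at 0.57, lay just short of that fold. Within line 14844, Usp18 was the 1 member at least 1.5-fold higher, against 0.559% of all genes, and Parp12 the 1 member that much lower, against 1.71%. Within line 14846, 0 members were at least 1.5-fold higher, against 0.423%, and Parp12 was again the 1 member that much lower, against 3.02%. With 1 array for each treatment in a line, these counts have no replicate check. Some markers of other cells were also higher with Tamoxifen in line 14843, namely Klrb1c by 0.88, Gzma by 0.65, Cd79b by 0.65 and Cox6a2 by 0.60 log2 units. Other markers from the same lists were level or lower there, such as Prf1 at 0.02, Klrk1 at -0.07, Cd79a at -0.16 and Ccr9 at -0.86. The natural killer cell marker sum was 7480 in the Tamoxifen array and 5014 in the Vehicle array of that line. Most of both sums came from Gzma, at 12.66 and 12.01 log2 intensity. The part of these markers in the counts was not tested.

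The signs of the differences were counted in each line as well. In line 14846 5 of 37 members were above 0, namely Eif2ak2, Oas2, Oasl2, Ifit2 and Usp18, while 55.3% of all genes were above 0 there. In lines 14843 and 14844 there were 24 and 27 members above 0, against 54.5% and 56.6% of all genes. The median member difference was 0.13, 0.11 and -0.18 in lines 14843, 14844 and 14846, and that of all genes was 0.02 in each line. Across the 37 members the within-line differences correlated at a Pearson r of 0.54 between lines 14843 and 14844, 0.36 between 14843 and 14846 and 0.61 between 14844 and 14846. Over all 13956 genes the values were 0.67, 0.49 and 0.58. These are correlations across genes, which are not independent replicates. Whether lines differ in their response cannot be tested, since a term for it would leave no residual degrees of freedom.

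**Figure D3:**
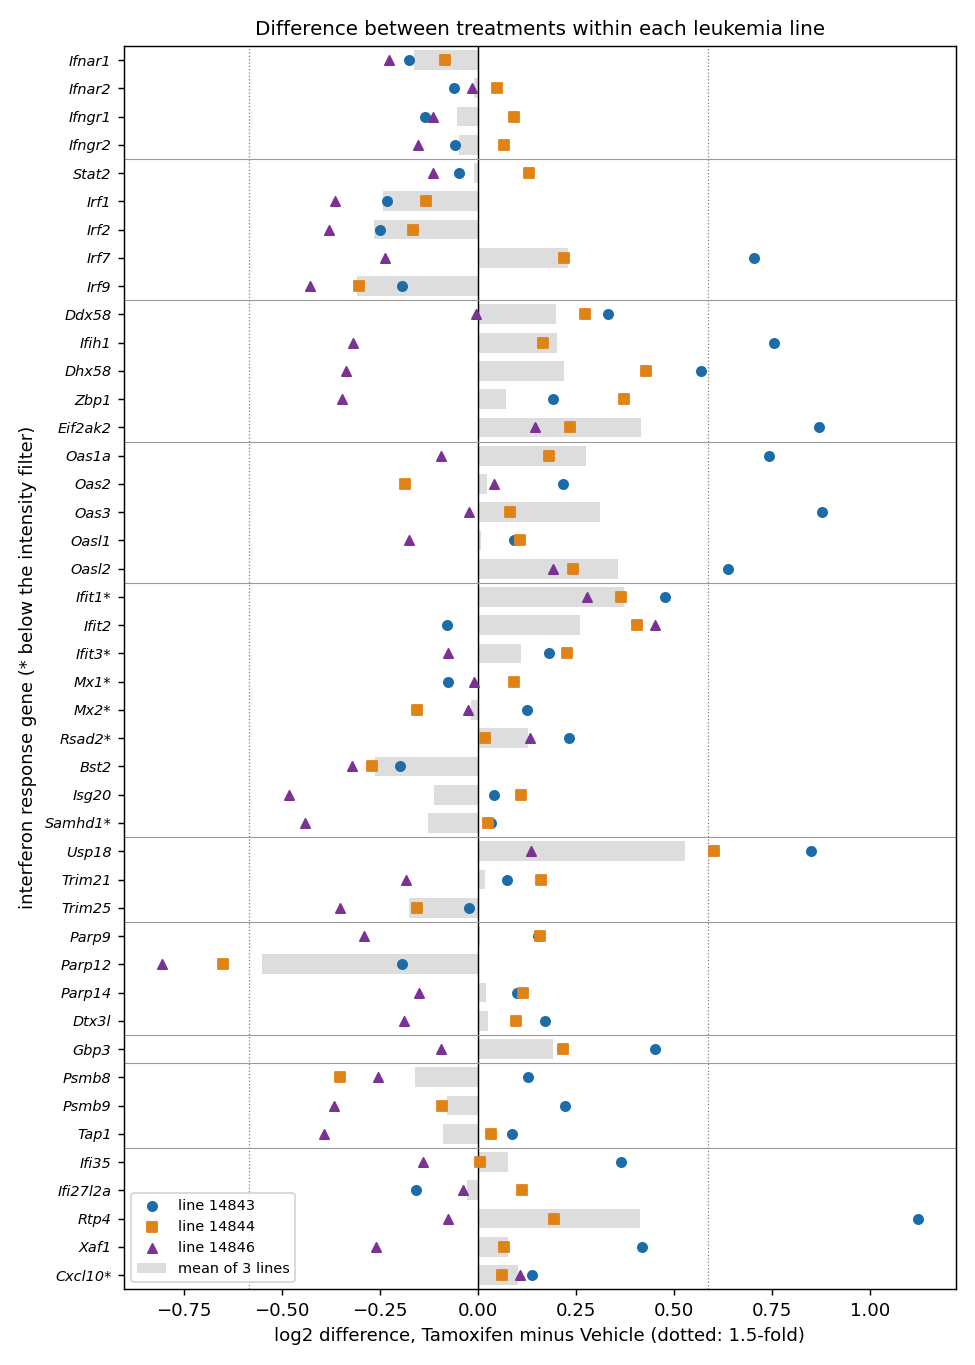
Log2 difference between the Tamoxifen and the Vehicle array within each line (points), with the mean of the 3 lines as a grey bar, for the 44 measured genes grouped by role. Dotted lines mark 1.5-fold in either direction, and each point is a difference of 2 arrays without an error. Circles of line 14843 pass 1.5-fold on the higher side for 8 tested genes, while triangles of line 14846 lie left of 0 for 32 of the 37 tested genes.

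Lines 14843 and 14846 also differed within each treatment. The Vehicle array of line 14846 held the highest of the 6 values for 23 members, or 62.2%, against 19.5% of all genes tested. The Vehicle array of line 14843 held the lowest value for 12 members, or 32.4%, against 21% of all genes, and that of line 14844 for 24.3%, against 19.1%. Conversely, the highest value lay in the Vehicle array of line 14843 for 2.7%, against 17.9%, and that of line 14846 was the lowest for 5.41%, against 22.4%. The Tamoxifen array of line 14843 was the highest for 8 members, or 21.6%, against 21.7%, and that of line 14846 was the highest for 0 members, against 17%. Between the Vehicle arrays, line 14846 was at least 1.5-fold above line 14843 for 8 members, against 3.56% of all genes, and at least 1.5-fold below for 0, against 1.76%. These 8 were Irf7, Ddx58, Oas1a, Gbp3, Psmb9, Tap1, Ifi35 and Rtp4, by log2 differences from 0.60 to 0.88. Between the Tamoxifen arrays of the same lines, 0 members were that much higher in line 14846, against 1.83%, and 3 were that much lower, against 1.75%, namely Ifih1, Usp18 and Parp12. The median member difference between lines 14846 and 14843 was -0.04 in Tamoxifen arrays and 0.33 in Vehicle arrays, against 0.01 and -0.00 over all genes. For some members the gap between these lines was wider in Tamoxifen arrays, as for Usp18, at -0.91 in Tamoxifen and -0.20 in Vehicle arrays, and Ifih1, at -0.71 in Tamoxifen and 0.36 in Vehicle arrays. The comparison of Vehicle arrays shares 1 array with the within-line differences of line 14843 and 1 with those of line 14846, so they are not independent. The 23 highest values and the signs within line 14846 likewise rest on the same Vehicle array. As given above, the Vehicle array of line 14846 also carried the highest monocyte and macrophage, B cell and natural killer cell marker sums. These sums came mostly from Ly86, Cd79b and Gzma, in that order. Gzma itself was no higher there than in the Vehicle array of line 14844, at 12.71 against 12.73. Klrb1c, another natural killer cell marker, was at 10.29 with Tamoxifen and 10.45 with Vehicle in line 14846. In the arrays of the other lines Klrb1c was at 6.60 to 7.90. The natural killer cell sum was similar in both arrays of line 14846, at 8670 with Tamoxifen and 8889 with Vehicle. The part of these markers in the member values was not tested.

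**Figure D4:**
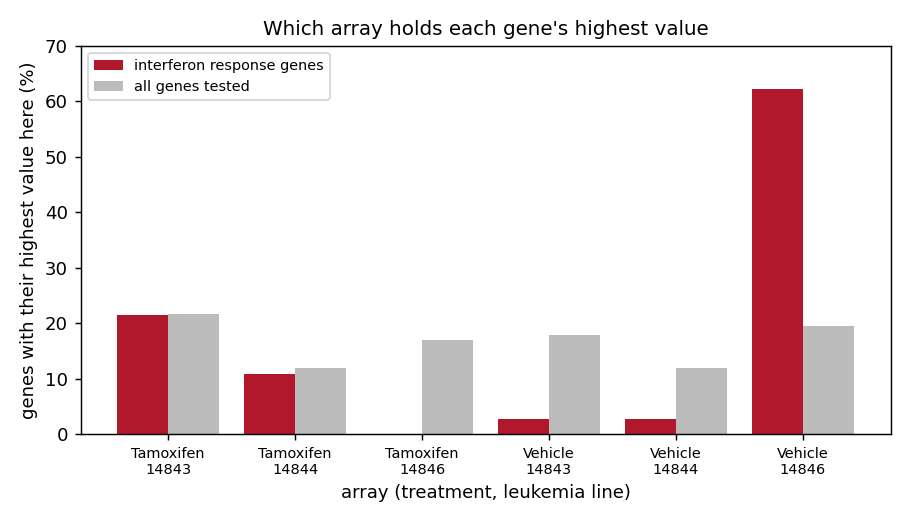
Share of genes (vertical axis, percent) whose highest value of the 6 lies in each array (horizontal axis), for the 37 tested interferon response genes and for all 13956 genes tested. The Vehicle array of line 14846 holds the highest value of 62.2% of the interferon response genes and of 19.5% of all genes, and the Tamoxifen array of that line holds 0% of the interferon response genes and 17% of all genes.

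Averaged over the treatments, the lines differed modestly in these genes. By limma's moderated F test, 0 of 37 members passed an adjusted p of 0.05 between lines, against 3.11% of all genes. At an unadjusted p under 0.05 there were 9 members, against 19.3% of all genes. The median span between the highest and the lowest line mean was 0.23 log2 units over the members and 0.14 over all genes. Parp12 had the widest span, with means of 8.90, 9.32 and 8.43 in lines 14843, 14844 and 14846, a span of 0.89 and an adjusted p of 0.082. In the pairwise contrasts, Ifngr1 was the 1 member called, lower in line 14846 than in line 14843 by a log2 difference of -0.53 ± 0.08 (SE) with a limma adjusted p of 0.033, against 3.67% of all genes called in that contrast. Its F test had an adjusted p of 0.064. Ifnar2, higher in line 14846 than in line 14843 by 0.35 ± 0.06, had 0.055. The contrasts of line 14844 with 14843 and of line 14846 with 14844 called 0 members, against 0.996% and 1.73% of all genes.

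Of the 75 further pathway genes, 3 differed between lines by the F test, Mavs, Cgas and Tapbp. Tapbp, which links class I molecules to the peptide transporter, was at 10.53, 12.43 and 10.46 in the Tamoxifen arrays of lines 14843, 14844 and 14846, against 10.72, 12.32 and 11.17 in Vehicle arrays. Line 14844 was thus above both other lines, with a span of 1.75 and an adjusted p of 0.019, and 0.53 without line 14844. Cgas, the cytosolic DNA sensor, was at 6.68, 6.69 and 7.32 in Tamoxifen arrays and at 7.17, 6.88 and 7.57 in Vehicle arrays. It was highest in line 14846, with a span of 0.66 and an adjusted p of 0.043, and 0.50 without that line. Mavs, described above, spanned 0.49 between lines with an adjusted p of 0.043, and was no longer called without any 1 of the lines.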

How the data were processed

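Total RNA of sorted GFP+ cells was labelled with the Ambion WT kit from 200 ng and measured on 6 one-colour Affymetrix arrays, per the labels' protocols. The deposited values are probe set intensities, and the submitters' processing notes name RMA and Affymetrix Expression Console 1.1. Their linear scale was read from the values, and RMA equalises the overall signal of arrays. The log2 of each intensity was taken here. Of 35556 probe sets, 21789 had 1 symbol, 1621 several and 12146 none in the platform annotation.

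Genes at or above the 30th percentile of mean intensity were tested with limma 3.58.1 in R 4.3.3, with line as a block and treatment as terms. P-values were two-sided and Benjamini-Hochberg adjusted over all 13956 genes. Deviations from the group means correlated at 0.64 to 0.68 within lines, and the labels name the line of each array, so arrays were paired by line. Between lines the correlations were at most -0.13. Deviations in a group sum to 0, which pushes these below 0 once those within lines are positive, so they are no separate support. Arrays of a group come from separate leukemias. The script was tested on simulated data. Members, role groups and pathway lists were chosen with earlier results of these data known. The rule for naming took every called member and, in each role group, the 2 tested members with the smallest p for treatment, the 2 with the smallest p for line and the brightest member. Of the pathway genes it took those called between treatments or lines. Other genes were named after their values were seen. Alternatives are given in the closing section.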

Additional observations from a re-analysis of the deposited data

Results flagged for a closer look

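The RNA sensors Ifih1, Dhx58 and Zbp1 are listed because their difference between treatments was at least 0.3 log2 units above 0 in 1 line and at least as far below 0 in another, all measured on 1 array of each treatment. Ifih1, in log2 units of Tamoxifen minus Vehicle, was at 0.75, 0.17 and -0.32 in lines 14843, 14844 and 14846. Dhx58 was at 0.57, 0.43 and -0.34, and Zbp1 at 0.19, 0.37 and -0.35, in the same lines. In each gene line 14846 was the negative one. The differences between lines were not tested, since each line has 1 array for each treatment.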

How the results depend on the processing

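The number of genes called between treatments was 870, and 295 without the replicate block; leaving out a line gave 70 to 669, lowest without line 14844. The 0 members called became 1 without the filter (Ifit1), 2 with a filter at the 50th percentile (Irf9 and Bst2) and 4 once each array was centred on its median (Irf2, Irf9, Bst2 and Parp12, all lower). Leaving out a line gave 0 to 2 called members, which were Ifit2 and Parp12 without line 14843 and Dhx58 and Usp18 without line 14846. Quantile normalization, eBayes with trend and robust settings, the mean of probe sets and the fit without the block called 0. Centring moved the share of lower genes among all calls from 79.1% to 85%, with 920 lower and 162 higher, and quantile normalization moved it to 70.5%, with 575 and 241. Between lines, 434 genes were called, 193 to 455 when a line was left out, and called members were 1 with eBayes trend and robust settings (Ifngr1) and 0 to 2 when a line was left out. Line 14846 against 14843 called 2 members without the filter, after centring and with the trend and robust settings, and line 14846 against 14844 called 1 after centring. The shares of all genes called by these contrasts in those settings are not given here, so these member counts have no background beside them. The 1 member at least 1.5-fold higher in line 14844, Usp18, became 0 after centring and after quantile normalization, and members above 0 in line 14846 became 8 after quantile normalization. Centring turned the sign of the treatment difference of Dtx3l, Oas2, Oasl1, Parp9, Parp14 and Trim21, and leaving out line 14843 that of Irf7, Ifih1, Ifi35 and Xaf1 among others. Settings for line contrasts and within-line counts were chosen after seeing the data. With 3 arrays a group and few residual degrees of freedom, small differences could be missed.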
